A study of Mus musculus with 6 samples.

Results

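Mast cells and basophils are granule-bearing cells of allergy and of the defence against parasites. They bind IgE through a high-affinity receptor and store proteases and amines in granules that are released when the receptor is cross-linked. GATA2 is a transcription factor of blood progenitors that the development of both cell types requires. One granule gene, Cpa3, is also known to be transcribed in early thymic progenitors. The genes described here are 6 that mark these cells: the granule protease genes Cpa3, Cma1 and Tpsb2, the IgE receptor genes Fcer1a and Ms4a2, and Gata2. They were chosen by name, with earlier results of these arrays known. They are 6 of the 8251 genes that the array names singly. They were read by every probe set whose annotation gives 1 of them as its only gene, which makes 11 of 12422 probe sets: 2 for Cpa3, 3 for Cma1, 2 for Tpsb2, 2 for Gata2 and 1 each for Fcer1a and Ms4a2. Because the members were chosen with this comparison known, their differences between the groups are a description, and the outcome of the fit for them is given only as counts, from which nothing is read.

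Total RNA of mouse double-negative thymocytes, the stage before CD4 and CD8 appear, was hybridised to 6 arrays. RAG1-deficient animals gave 3 of the arrays, and animals with the double mutation of RAG1 and Ezh2 gave the other 3. All samples therefore share the loss of RAG1, without which antigen receptor genes are not rearranged. Ezh2 is the methyltransferase of Polycomb repressive complex 2. The labels do not give the alleles, any Cre driver, the strain, the age or whether each sample is a separate animal, so the spread behind the fit's p-values may be technical. The sample titles come in 3 styles with 1 array of each group. They are called here numbered, Rag and Thy, and in both groups replicate 1 is numbered, replicate 2 is Rag and replicate 3 is Thy. The titles of the Rag arrays name T cells and do not name the double-negative stage, and 2 RAG1-deficient titles end in WT although the descriptions name RAG1.

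Values are scaled linear intensities, which can be compared between arrays for 1 probe set but not between probe sets. Ezh2 lay between 1435 and 1790 on the RAG1-deficient arrays and between 292 and 724 on the double mutant arrays. The thymocyte genes Cd3g and Ptcra were bright on all 6, at 13676 or more and at 4614 or more. RAG1-deficient replicate 1 stood apart in Cd8a, at 2973 against at most 81.3 on the other arrays. It did so too in Cd8b1, at 8426 against at most 164, and in Cd4, at 699 against at most 273. RAG1-deficient replicate 2 stood apart in the neutrophil gene Camp, at 3912 against at most 1403. On the Rag arrays of both groups dim probe sets read lower, with a 25th percentile of 20.7 and 20.8 against 36.7 to 48.3 on the other 4. In such bulk RNA, fewer cells of a type and less RNA per cell cannot be told apart.

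The members did not share a pattern across the 6 arrays. Cpa3 was higher in every double mutant array than in any RAG1-deficient array at both of its probe sets. Tpsb2 and Gata2 were measured on all arrays, and their groups overlapped. Cma1 lay near or under the level of the filter, an intensity of 86.5, and Fcer1a and Ms4a2 lay under it on all 6 arrays. Of the 11 probe sets, 6 (of 4 genes) were above the filter on at least 3 arrays and entered the fit.

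Sequences just upstream of 2 granule protease genes are shown, Cpa3, whose groups did not overlap, and Cma1, whose groups overlapped at its brightest probe set, because GATA factors act on this gene class. They are RefSeq promoter sequences of GRCm38.p6, cut so that no base of the annotated gene is included, 222 bases for Cpa3 (chr3:20242210-20242431, minus strand) and 250 for Cma1 (chr14:55944676-55944925, minus strand). Both are written 5′ to 3′ along the gene, and capitals mark the letters GATAA or, for the other strand, TTATC.
Cpa3: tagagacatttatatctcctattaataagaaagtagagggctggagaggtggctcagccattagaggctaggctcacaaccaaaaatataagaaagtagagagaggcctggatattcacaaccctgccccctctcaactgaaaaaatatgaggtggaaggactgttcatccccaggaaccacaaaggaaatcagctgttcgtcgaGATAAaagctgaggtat
Cma1: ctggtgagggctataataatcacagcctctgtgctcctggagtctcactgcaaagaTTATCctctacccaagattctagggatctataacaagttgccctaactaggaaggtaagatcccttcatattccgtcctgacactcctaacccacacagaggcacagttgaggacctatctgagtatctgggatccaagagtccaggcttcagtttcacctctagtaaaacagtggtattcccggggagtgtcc
Each window held 1 match, which began 45 bases before the listed start site in Cpa3 and 194 bases before it in Cma1. Of 32851 promoter windows of the same lengths, 20.7% and 22.6% held at least 1 such match. The letters CANNTG, the core bound by bHLH factors, which read the same on both strands, occurred 2 times for Cpa3 and 1 time for Cma1, against 62.4% and 66.2% of windows with at least 1. The windows of Fcer1a (247 bases) and Ms4a2 (179 bases) also held 1 GATAA or TTATC each, and that of Gata2 (250 bases) held 0. A match is a description of the letters and not a bound site. Tpsb2 was not matched in the promoter table.

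Cpa3 encodes carboxypeptidase A3, a metalloprotease of the mast cell granule. Its brighter probe set, 102351_at, read 156, 513 and 569 on RAG1-deficient replicates 1, 2 and 3, and 1007, 2992 and 1287 on double mutant replicates 1, 2 and 3. Even the lowest double mutant array was above the highest RAG1-deficient array, and the Rag array was the highest of its group only in the double mutant. The group means were 413 ± 224 (SD, n = 3) and 1762 ± 1074 (SD, n = 3), a ratio of 4.27. On the scale of log2(intensity + 23), on which all differences here are given, the double mutant minus RAG1-deficient difference was 2.05 ± 0.53 (SE).

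All title-style pairs had a Cpa3 difference above 0. It was 2.52 for the numbered arrays, 2.49 for the Rag arrays and 1.15 for the Thy arrays. It ranked as number 14 of 7642 tested probe sets by size of rise. The lowest of all 6 values was that of RAG1-deficient replicate 1, the array with the high CD8 genes, and its part in the result was not tested. Without that array the log2 difference was 1.50, and without double mutant replicate 2, the highest, it was 1.59.

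The second probe set of Cpa3, 162348_r_at, whose _r_ suffix marks relaxed probe selection, was dimmer and moved less. It read 129, 112 and 129 on the RAG1-deficient arrays and 190, 283 and 302 on the double mutant arrays, again without overlap. The means were 124 ± 10.1 (SD, n = 3) and 258 ± 60.2 (SD, n = 3). They differed by 0.92 ± 0.29 (SE) on the log2 scale. The order of the arrays differed between the 2 probe sets. The brighter one was highest on the double mutant Rag array, and the dimmer one on the double mutant Thy array.

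Cma1, which encodes mast cell chymase, was not higher on average in the double mutant at any of its 3 probe sets. The brightest, 102407_at, read 124, 107 and 63.2 on the RAG1-deficient and 93.8, 40 and 72.7 on the double mutant arrays, so the groups overlapped. Its log2 difference was -0.41 ± 0.45 (SE), with -0.33, -1.04 and 0.15 in the numbered, Rag and Thy pairs.

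A second Cma1 probe set, 102406_at, lay under the filter on all arrays and was lower in the double mutant without overlap. It read 67.8, 20.5 and 64.1 against 5.8, 7.8 and 14. The third, 102408_g_at, is annotated to the same source sequence as the first and stayed at or below 22.7 everywhere. Only the first of the 3 reached the filter level on any array.

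Tpsb2 encodes a mast cell tryptase. Its brighter probe set, 93622_at, read 280, 109 and 136 on the RAG1-deficient and 317, 121 and 163 on the double mutant arrays. The numbered array was the highest and the Rag array the lowest of both groups, and the groups overlapped. The log2 difference was 0.17 ± 0.44 (SE), and the pairs gave 0.17, 0.12 and 0.23. The other probe set, 92711_at, read 210, 105 and 172 against 198, 110 and 125, with a log2 difference of -0.14 ± 0.36 (SE). The 2 probe sets therefore lay on opposite sides of 0, both within the spread between arrays.

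**Figure D1:**
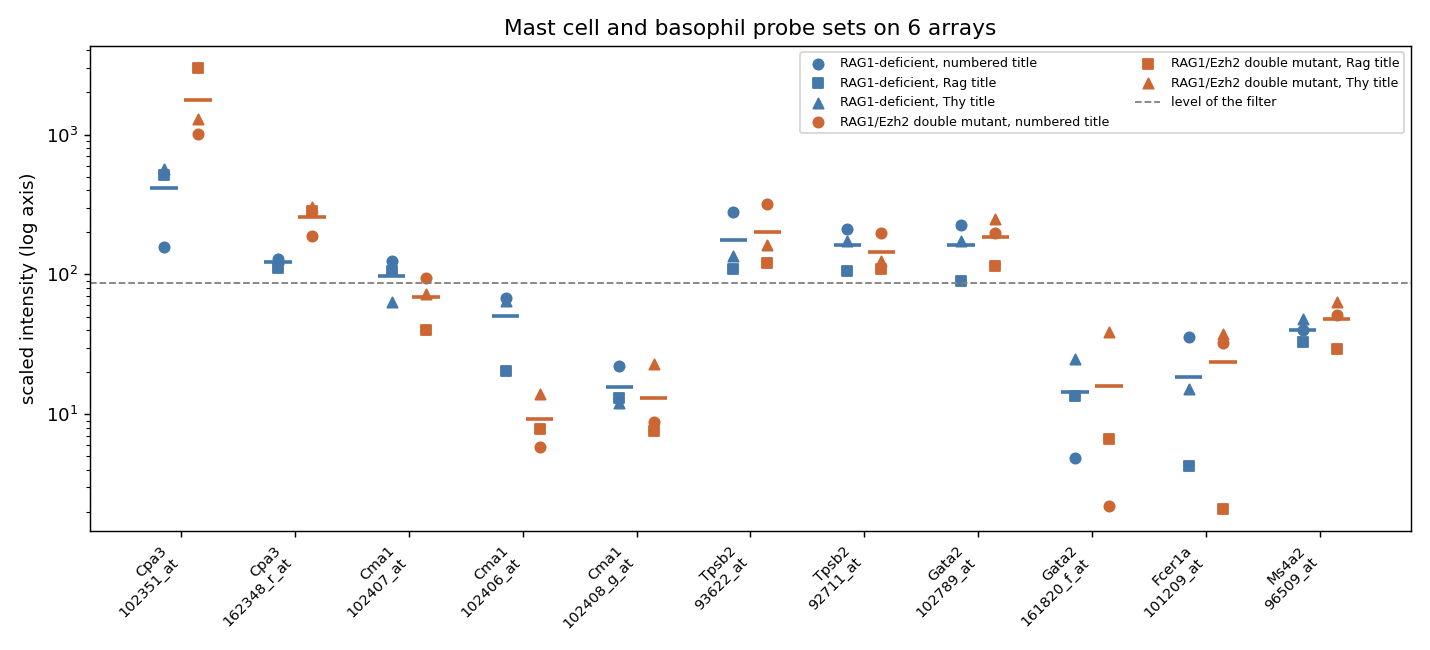
Scaled intensity on a log axis of the 11 probe sets of the 6 genes, with 1 point per array (colour for the group, shape for the title style), a bar at each group mean, and a dashed line at the filter level of 86.5. Both Cpa3 probe sets lie higher on the 3 double mutant arrays than on the 3 RAG1-deficient arrays, whereas the points of Tpsb2, Fcer1a, Ms4a2 and both Gata2 probe sets overlap.

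The IgE receptor genes gave little signal. Fcer1a, the alpha chain that binds IgE, read 35.5, 4.3 and 15.2 on the RAG1-deficient and 32.1, 2.1 and 37.3 on the double mutant arrays. It was lowest on the Rag array of both groups. Ms4a2, the signal-amplifying beta chain, read 40.3, 32.6 and 47.9 against 51.1, 29.4 and 63.8. Their log2 differences were 0.15 and 0.14, with both directions among the pairs. Neither gene entered the fit, and at these intensities no level can be stated.

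Gata2 was measured by 102789_at on all arrays. It read 226, 89.1 and 174 on the RAG1-deficient and 197, 114 and 247 on the double mutant arrays, and the groups overlapped. The log2 difference was 0.19 ± 0.40 (SE), with -0.18, 0.29 and 0.46 in the numbered, Rag and Thy pairs. The other probe set, 161820_f_at, can detect related transcripts and stayed at or below 38.9.

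The title styles ordered several members alike in both groups. The Rag array was the lowest of both groups for 5 of the 11 probe sets, those of Tpsb2 (2), Fcer1a and Ms4a2 and the brighter one of Gata2. Over all 12422 probe sets this was so for 39.6%, and for 49.1% of those under the filter, so the members' count is near that background. The summed intensity of the 5 members other than Cpa3, each at its brightest probe set, was 706, 342 and 436 on the RAG1-deficient arrays and 691, 306 and 584 on the double mutant arrays. This sum largely repeats Tpsb2 and Gata2, counted above, which read 280 and 226 of the 706 on RAG1-deficient replicate 1. It is therefore not a second observation. The Rag arrays were lowest in both groups, and the groups overlapped. Cpa3 did not follow that order, and was lowest on the numbered array in both groups at its brighter probe set.

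**Figure D2:**
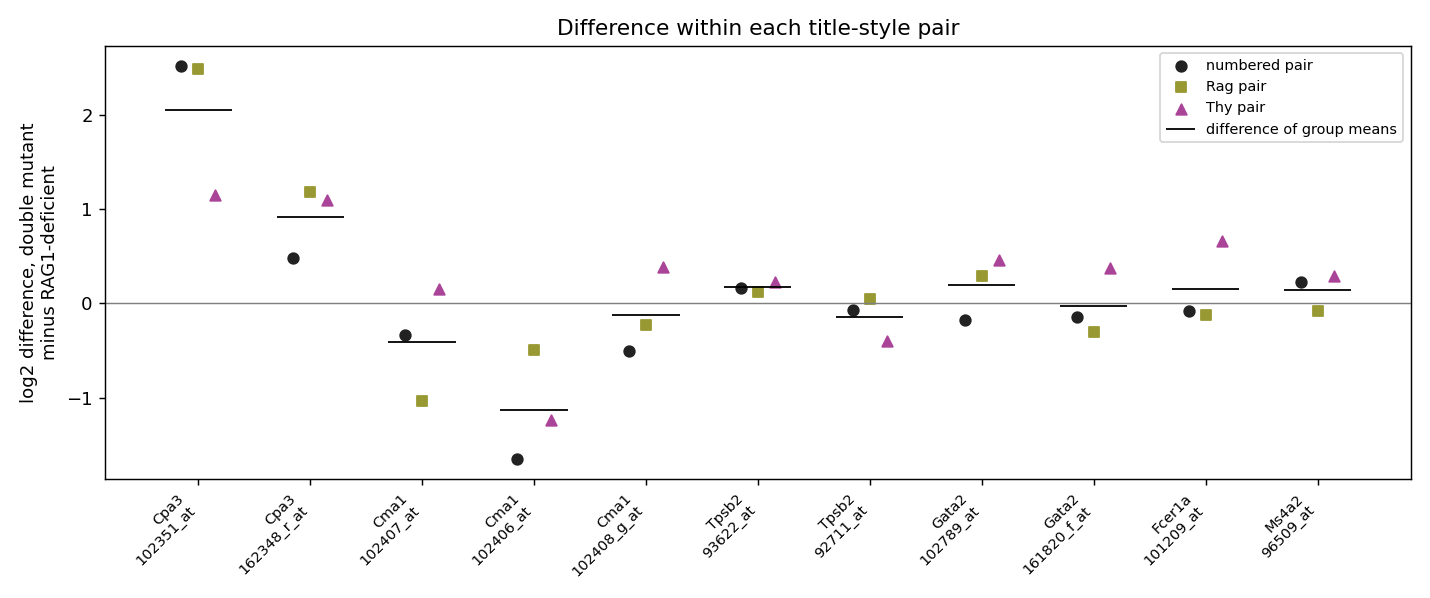
Log2 difference, double mutant minus RAG1-deficient, within each of the 3 title-style pairs for the 11 probe sets, with a bar at the difference of the group means. All 3 pairs of both Cpa3 probe sets lie above 0, from 0.48 to 2.52, and all 3 pairs of the dim Cma1 probe set 102406_at lie below 0.

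Read against all probe sets, the members give these counts. In the limma fit with group alone, 0 of the 6 tested member probe sets passed an adjusted p of 0.05, where 0.0393% of all tested probe sets passed. Unadjusted p was under 0.05 for 2 of the 6, both of Cpa3, against 2.29% of all tested probe sets as higher. With the title style as a block, 1 of 6 passed, the brighter probe set of Cpa3, where 0.563% of all tested probe sets passed as higher and 0.105% as lower, 0.667% together. With replicate 1 left out of both groups this was 0 of 6. Groups did not overlap for 2 of 11 probe sets as higher and for 1 of 11 as lower, against 3.37% and 3.13% of all probe sets. Because the comparison was known when the members were chosen, nothing is read from these counts. The median log2 difference over the 6 genes was 0.16, and it was 0.15 over the 5 without Cpa3, which ranged from -0.41 to 0.19. Over all 8251 named genes it was -0.02.

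Further genes of mast cells and basophils were taken from 5 lists that hold no member. Of their 49 tested probe sets, 0 passed in the limma fit with group alone, where 0.0393% of all tested probe sets passed. With the title style as a block 1 passed, where 0.667% of all tested probe sets passed. The granule list (proteases and the storage of amines and proteoglycan) had 12 genes on the array and 4 that were tested, with 2 above and 2 below 0 and a median log2 difference of 0.41. The mast cell protease genes proper were not tested because they were dim. Tpsab1, another tryptase, read from 2.6 to 7.0, Mcpt4, a chymase, from 0.6 to 21.1, and Mcpt2 from 7.9 to 75.3. Mcpt8, known from basophils, read from 20.1 to 103 at its brighter probe set. Hdc, the enzyme that makes histamine, read 18.4, 99.4 and 46.4 on the RAG1-deficient and 28.2, 61.6 and 81.0 on the double mutant arrays, with overlap. The groups of these 5 genes, and of the dim Mcpt1, overlapped at the brighter probe set. Those of Ctsg, a dim granule gene given below, did not. Over all probe sets, groups did not overlap for 3.37% as higher and for 3.13% as lower.

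Gzmb, a granzyme of killer cells that mast cells can also make, was the granule gene that passed with the title style as a block. It read 191, 199 and 299 on the RAG1-deficient and 414, 553 and 903 on the double mutant arrays, without overlap. The log2 difference was 1.31 ± 0.33 (SE), with an adjusted p of 0.542 in the limma fit with group alone and 0.0261 with the block. The block's call ended without replicate 1 of both groups (adjusted p = 0.0839) and without replicate 3 of both groups (0.132). The killer cell gene Gzma, outside these 5 lists, read 2796, 2163 and 1244 against 8096, 7946 and 4982. It passed with the block as well (adjusted p = 0.00356), and its adjusted p was 0.267 with group alone. The granule gene Ctsg, chosen after its values were seen, was under the filter on all but 1 array. It read 14.7, 15.6 and 19.6 on the RAG1-deficient and 41.0, 55.4 and 87.3 on the double mutant arrays, without overlap.

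Genes that carry the IgE receptor signal did not pass in either fit. Of 14 on the array 12 were tested, 2 above and 10 below 0, with a median log2 difference of -0.09. Most of them also serve antigen receptor signalling in T cells. Ptpn6, an inhibitory phosphatase, read 1094 ± 112 (SD, n = 3) against 882 ± 56.8 (SD, n = 3). Its log2 difference of -0.30 did not pass (adjusted p = 0.382 with the block). The kinase Syk had -0.17. Fcer1g, the gamma chain that the IgE receptor shares with other Fc receptors, stayed at or below 66.1 on all arrays and was not tested. Receptor genes of all 3 chains were therefore under the filter everywhere.

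Growth factor receptors and other surface proteins of these cells did not pass in either fit. The list had 12 genes on the array and 6 tested, 5 above and 1 below 0, with a median log2 difference of 0.08. Kit, the stem cell factor receptor of mast cells and of early thymic progenitors, read 457, 191 and 250 on the RAG1-deficient and 537, 302 and 403 on the double mutant arrays. Kit was higher in all 3 pairs, but the groups overlapped, and its log2 difference of 0.49 ± 0.35 (SE) did not pass (adjusted p = 0.294 with the block). The cytokine receptor gene Il18r1 had -0.27 ± 0.26 (SE). In the list of lipid mediators and cytokines, 4 of 13 genes were tested, 2 on each side of 0, and 0 passed in either fit. The phospholipase gene Pla2g4a had 0.26 and Tnf -0.30, and Il4 and Il13 were under the filter on at least 4 arrays.

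Transcription factors that work with GATA factors or in mast cells went both ways. Of 18 on the array 14 were tested, 8 above and 6 below 0, with a median log2 difference of 0.06, and 0 passed in either fit. Lyl1, a bHLH factor of early progenitors, read 474, 802 and 634 against 1290, 1178 and 1517, without overlap. With a log2 difference of 1.06 ± 0.25 (SE), it missed the threshold of the limma fit with the block (adjusted p = 0.0606). A dimmer probe set of Lyl1 had 0.62. Nfe2, a factor of erythroid and megakaryocytic cells, had 0.96 ± 0.29 (SE), also without overlap (adjusted p = 0.0699 with the block). Mitf, a regulator of mast cell genes, read at most 87.3 and was not tested. The brighter probe set of Gata1 had -0.16, and Gata3, the GATA factor of T cells, had 0.11.

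**Figure D3:**
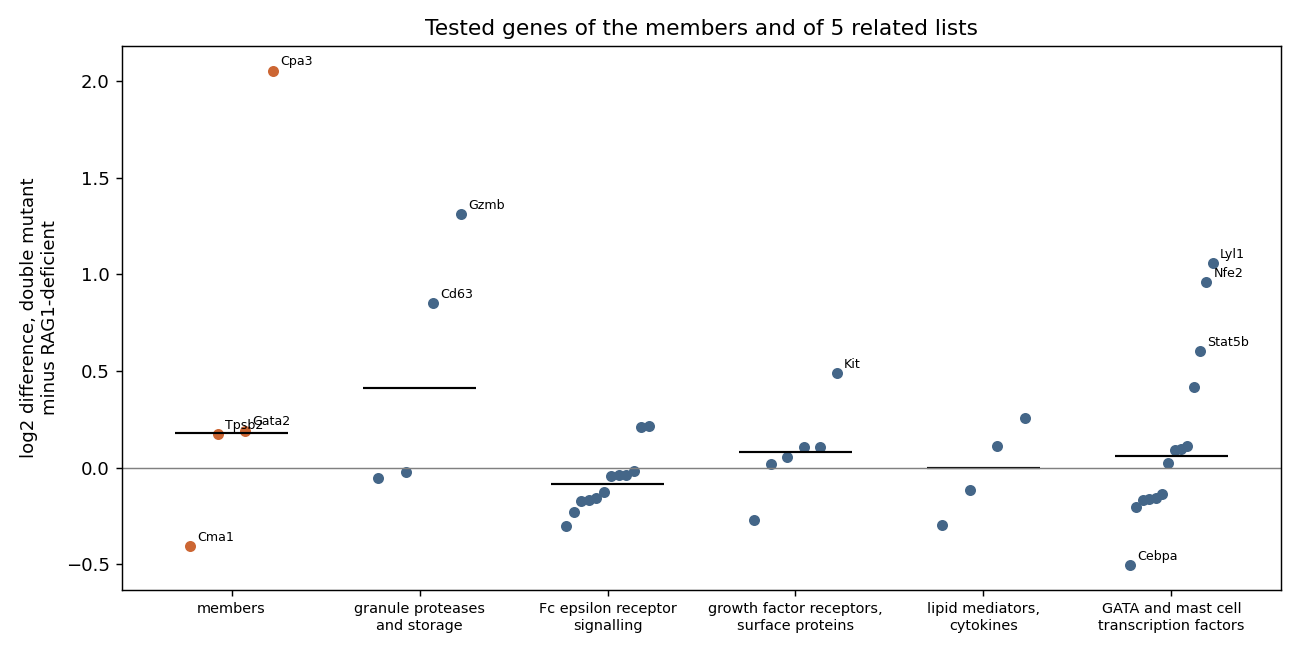
Log2 difference, double mutant minus RAG1-deficient, of the tested genes of the 6 members and of 5 related lists, each gene at its brightest probe set, with a bar at the median of each list. Cpa3 at 2.05 lies above every tested gene of the related lists, of which Gzmb at 1.31 is the highest, and the medians lie between -0.09 and 0.41.

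Among genes of early progenitors, 7 of 11 were tested, 4 above and 3 below 0, and 0 passed in either fit. Lyl1 and Kit, given above, were among them, and Cd34 had a log2 difference of -0.62 ± 0.56 (SE). Il7r, the receptor chain that early thymocytes need, had -0.39 ± 0.24 (SE). All 11 tested double-negative thymocyte genes lay below 0 with a median of -0.23, and 0 passed in either fit. Those with the smallest p were Ptcra at -0.66 and Rag1 at -0.44. Rag1 is the gene mutated in all samples, by an allele that the labels do not give. Its brighter probe set still read 6933 to 7264 on the RAG1-deficient and 5171 to 5394 on the double mutant arrays. Of the CD4 and CD8 genes only Cd4 was tested. It had -1.13 ± 0.63 (SE) and did not pass in the limma fits (adjusted p = 0.0827 with the block).

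Other cell types were followed beside Cpa3 by the summed intensity of their marker lists. Such a sum mostly follows the brightest probe sets of its list and says little of the others. In the megakaryocyte and erythroid list, Hba-a1 read 26475 of a sum of 29449 on RAG1-deficient replicate 1. The NK and innate lymphoid list (10 genes) had sums of 4363 to 6528 on the RAG1-deficient and 9903 to 12254 on the double mutant arrays, without overlap. Gzma made up 28.5% to 42.8% of this sum on the RAG1-deficient and 50.3% to 73.3% on the double mutant arrays. Without Gzma the sums of this list overlapped, at 3118 to 3732 against 2891 to 4920. The sum of the granule list did not overlap either, at 1912 to 2096 against 2312 to 2856, and without Gzmb it did, at 1722 to 1798 against 1759 to 2119. Both sums without a gene were added after the values were seen. For the neutrophil list (12 genes) the sums were 1804 to 15849 against 2210 to 6077, and for the eosinophil list (6 genes) they were 120 to 385 against 226 to 458. Monocyte, megakaryocyte and erythroid, dendritic cell, B lineage and stromal sums overlapped as well. Of single genes in these other lists, Gzma and the stromal gene Pdgfrb passed with the block, where 0.667% of all tested probe sets passed. Pdgfrb had a log2 difference of 1.23 ± 0.26 (SE). Its adjusted p was 0.332 with group alone and 0.0436 with the block in the limma fits. The Pdgfrb call ended without replicate 1 (adjusted p = 0.203) or replicate 3 (0.125) of both groups. The Gzma call held without replicate 1 (adjusted p = 0.0193), replicate 2 (2.5e-13) or replicate 3 (0.0307) of both groups. The genes with the smallest p in the remaining lists did not pass in either fit, with log2 differences of 1.25 for Ngp and 0.27 for Camp (neutrophil), -0.88 for Ccr2 and -0.42 for Cd14 (monocyte), and 1.05 for Epor and 0.18 for Klf1 (erythroid). Likewise they were -0.36 for Itgax and -0.42 for Ccl22 (dendritic cell), -0.85 for Pax5 and -0.40 for Vpreb1 (B lineage) and 0.07 for Alox15 (eosinophil). The part of these cells in the Cpa3 difference was not tested. Of the mast cell and basophil protease genes, Tpsab1 and Mcpt4 read at or below 21.1. At their brightest probe sets Mcpt8 read up to 103, Cma1 up to 124 and Tpsb2 from 109 to 317. These are values of different probe sets, so the genes cannot be ranked by them.

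Genes with a profile like that of Cpa3 were found by Pearson's r with its brighter probe set, the most variable member, over the 6 arrays. The 5 highest were Sptssa, a subunit of serine palmitoyltransferase (r = 0.998), Phf13 (0.992), Plekho1 (0.978), Gas8 (0.973) and Nfe2 (0.971). These are the top of a ranking of all tested named genes over only 6 arrays, and the points share title styles, so r is a description. The sizes differed widely, with log2 differences of 0.27 for Sptssa, 0.90 for Phf13, 0.60 for Plekho1, 0.20 for Gas8 and 0.96 for Nfe2 against 2.05 for Cpa3. All 5 were lowest on RAG1-deficient replicate 1 and highest on double mutant replicate 2, as Cpa3 was. Choosing them by r makes such a match likely, so nothing is read from it.

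**Figure D4:**
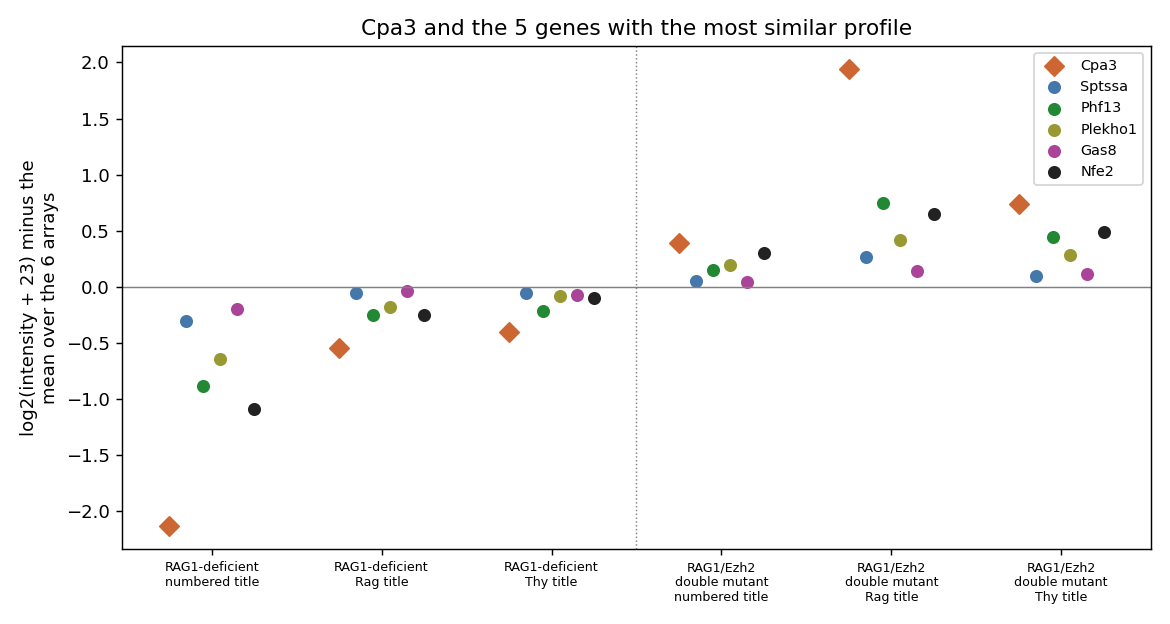
Level of Cpa3 and of the 5 genes most like it on each array, as log2(intensity + 23) minus the gene's mean over the 6 arrays, with 1 point per gene and array. All 6 genes are lowest on the RAG1-deficient numbered array and highest on the double mutant Rag array, and Cpa3 has the widest range. The 5 genes were chosen for this likeness.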

How the data were processed

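The deposited table holds 1 linear intensity per probe set and array. The software behind it is not given in the sources used here. The values show that the authors scaled each array to 1 common mean (2%-trimmed means of 500.293 to 500.37) before deposit, so a shift common to most transcripts would not be seen. No detection calls were used, and having only 6 arrays limits the precision. Control probe sets (66) were left out. Gene names came from the platform table, with Entrez numbers looked up in RefSeq (10839 matched). Values were tested as log2(intensity + 23), 23 being the rounded 20th percentile, for 7642 probe sets above 86.5, the 40th percentile, on at least 3 arrays. The test was limma 3.58.1 under R 4.3.3 (eBayes with trend, two-sided, Benjamini-Hochberg over all tested probe sets). It was also run on simulated data with independent noise and no title-style effect. That run therefore says nothing of how the fits treat the title styles. Differences of probe sets under the filter are differences of group means, without SE. The brightest probe set stands for a gene.

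Arrays were grouped by their descriptions. Deviations from the group means correlated between the arrays of a title style at 0.570 (numbered), 0.736 (Rag) and 0.602 (Thy), above the limit of 0.1 for pairing, so a second fit had the title style as a block and is given where it changes a call. This pairing rests on titles and values, as the labels name no common litter or day. The members and lists were chosen with earlier results of these data known. Named beside the members were, per list, genes that passed either fit or otherwise the 2 with the smallest p, and the 5 genes most like the most variable member. Further genes given with values were chosen for their known role. Alternatives changed the pseudocount (10, 86, or a floor), scaling, filter, trend, block and arrays. Plots used matplotlib 3.10.9 (Python 3.11.15).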

Additional observations from a re-analysis of the deposited data

How the results depend on the processing

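The log2 difference of Cpa3 at its brighter probe set stayed between 1.50 and 2.51 over 14 alternatives, and the mean over both probe sets was 1.49. The direction of Cma1, from -0.69 to -0.09, also held. Those of Tpsb2, Gata2, Fcer1a and Ms4a2 fell on both sides of 0, and the median over the 6 members lay between -0.09 and 0.45. The fit with group alone called 3 probe sets higher and 0 lower. It called 43 and 8 with the title style as a replicate block, 5 higher with quantile normalization and 1 higher with the filter on all 6 arrays. Leaving out 1 array gave 0 to 6 higher. Leaving out a pair under the block gave 3 to 127 higher and 0 to 64 lower, with 12 and 2 without replicate 1 of both groups. Of the member probe sets 0 were called with group alone and 1, that of Cpa3, under the block. With the block and a pair left out this was 0 or 1, and 0 without replicate 1 of both groups. Over all gene lists without the members, those of other cell types included, 0 probe sets were called with group alone. Under the block 3 were called (Gzmb, Gzma and Pdgfrb). Over all 7642 tested probe sets the called shares were 0.0393% with group alone and 0.667% under the block. With a pair left out, the list count was 1 without replicate 1, 13 without replicate 2 and 1 without replicate 3 of both groups. Over all tested probe sets these fits called 12 higher and 2 lower, 127 higher and 64 lower, and 3 higher and 0 lower. The tested probe sets of these lists were not counted together, so nothing is read from the list counts. The cause of these changes was not tested. Probe sets near or under the filter, among them those of Fcer1a, Ms4a2 and Cma1, limit what can be said of these genes.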
